A study of Mus musculus with 16 samples.

Results

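Pulmonary and aortic valves of mouse embryos at stage E14.5 (embryonic day) were compared in the 6 libraries, of 16 in all, in which the skeletal muscle gene Mylpf lay below a normalised count of 100. The 6 were wild-type aortic replicates 2 and 4, mutant aortic replicate 4, wild-type pulmonary replicates 2 and 4, and mutant pulmonary replicate 4. Each valve therefore had 3 libraries, with 2 wild types and 1 mutant. Mylpf was 23.2, 1.75 and 0.569 in aortic libraries and 0.801, 0.734 and 7.16 in pulmonary libraries. Values for a valve are given in this order throughout, wild type 2, wild type 4 and mutant 4. The highest value inside the limit was 23.2 in wild-type aortic replicate 2, and the lowest outside it was 278 in mutant aortic replicate 2. The libraries were thus chosen by their own Mylpf values, so results for Mylpf among them, given in the closing sections, are no support.

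All embryos were on a C57BL/6 background. Wild types carried no allele named in the labels, and mutants were Jag1flox;Nkx2.5-Cre, in which Cre recombinase under Nkx2.5 control recombines a floxed Jag1 gene in cells of that cardiac lineage. Valve tissue was cut out by laser microdissection, and its RNA was amplified before sequencing. Aortic libraries were made as library batch 1 and pulmonary libraries as batch 2, so a valve difference below cannot be told apart from a difference between batches. The labels do not say whether embryos were pooled, and p-values measure only the spread between these libraries. Wild-type and mutant replicate 4 of a valve came from 1 litter, which was another litter for the other valve, so the valves also differ partly in litter, and the 3 libraries of a valve come from 2 litters. Wild-type replicate 2 gave both valves from 1 litter, but its aortic library had Xist at 2369 and its pulmonary library at 1.07, which differ in sex. Xist, the transcript of the inactive X chromosome, was also high in mutant aortic 4 (2310) and mutant pulmonary 4 (1395) and was 0.702 and 1.84 in the remaining wild types.

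The aortic and pulmonary valves both form from the cushions of the outflow tract, which the septum divides between the great arteries. Each growing leaflet has a core of mesenchyme that secretes collagens, proteoglycans and elastic fibres, under a sheet of endothelium that signals to it through Notch, BMP, TGF-beta and Wnt ligands. Much of the sub-pulmonary outflow tract comes from late-added second heart field cells, for which genes such as Sema3c and Tbx3 are known.

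The name muscle-free was checked against marker lists. Summed skeletal muscle markers were 86.5, 8.25 and 7.11 in aortic and 20.2, 14.7 and 17.5 in pulmonary libraries, against 954 to 3219 in the other 10 libraries. That sum holds Mylpf, which chose the libraries. The 18 markers without it summed to 63.3, 6.49 and 6.54 in aortic and 19.4, 13.9 and 10.4 in pulmonary libraries, against 614 to 2320 in the other 10. Of the 19 markers only Chrnd, an acetylcholine receptor subunit of muscle, was at 0 in all 6, and 1 was above 1 in all 6. Heart muscle transcripts remained, with summed cardiomyocyte markers of 1834, 886 and 572 in aortic and 756, 570 and 505 in pulmonary libraries. The libraries are therefore called low-Mylpf libraries below. Tbx20, a transcription factor of cushion mesenchyme and endocardium, was 1032 to 1744 in the 6 and 98.0 to 976 in the other 10. Recovered reads were 4.98 to 6.62 M (megareads) per aortic and 6.94 to 7.49 M per pulmonary library. Genes listed at 0 numbered 174 to 312 in aortic and 384 to 541 in pulmonary libraries, without overlap, and the part of this in the valve differences was not tested.

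Wild-type aortic replicate 2 stood apart. It had the highest summed erythroid markers, 41072 against 1380 to 9097 in the other 5 libraries, and the highest summed airway and oesophagus markers, 22.9 against 0.284 to 2.94. Its cardiomyocyte and skeletal muscle sums were also the highest. Lists and genes whose direction it turned, or whose value it moved by over 1.5 times, are given without it as well where they are described. Jag1, the targeted gene, was 54.7, 18.8 and 10.2 in aortic and 19.2, 15.4 and 1.85 in pulmonary libraries, so the mutant was lowest in each valve.

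**Figure D1:**
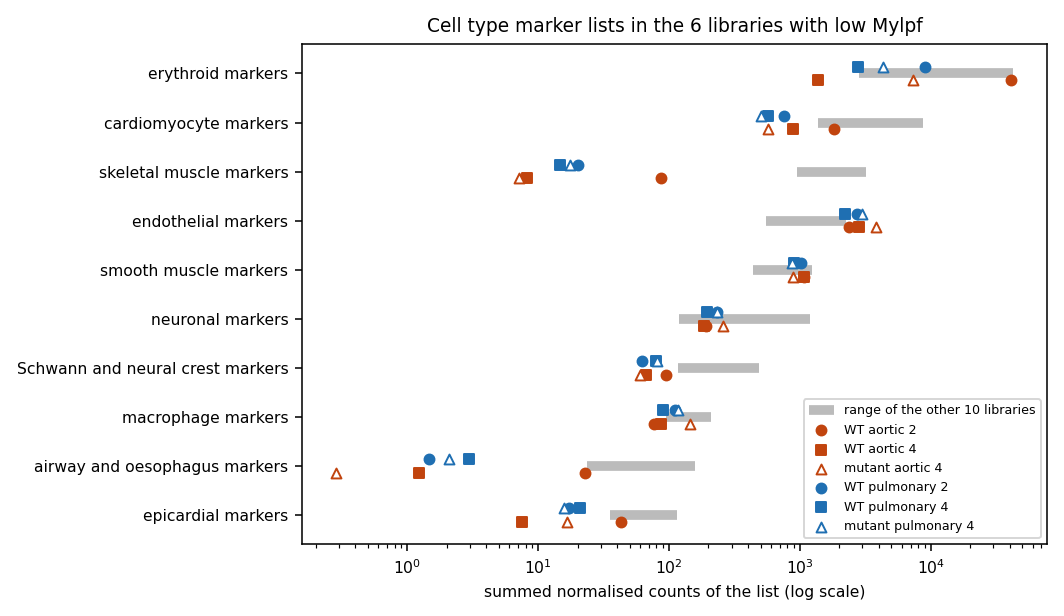
Summed normalised counts of 10 lists of cell type markers (log axis) in the 6 low-Mylpf libraries, with aortic in orange, pulmonary in blue, wild types filled and mutants open. Grey bars give the range of the other 10 libraries. Wild-type aortic replicate 2 lies at 86.5 for skeletal muscle and 41072 for erythroid markers, to the right of the other 5.

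No gene passed an adjusted p of 0.05 between the valves. The limma fit on log2(normalised count + 1), with genotype as a term, tested 13271 genes and called 0 higher and 0 lower in pulmonary (0% of genes tested). The smallest adjusted p was 0.164. Before adjustment, 480 genes had p under 0.05 (3.62%), fewer than the 664 that this threshold passes by chance, with 241 higher in pulmonary (1.82%) and 239 lower (1.8%). On the recovered reads, edgeR's quasi-likelihood test also called 0, with 232 genes higher and 206 lower before adjustment, while DESeq2 called 5 higher and 5 lower. All 3 pulmonary libraries lay above all 3 aortic libraries for 527 genes (3.97%) and below them for 587 genes (4.42%). Libraries of the same valve correlated at r = 0.914 to 0.938 over 6 pairs and libraries of different valves at 0.919 to 0.947 over 9 pairs, across genes, which are not independent replicates.

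The genes described next were the 12 per direction with the smallest unadjusted p among those whose valves did not overlap and whose mean reached 10 in the higher valve. None passed the adjusted threshold, and the choice fixed their direction. Among the 12 higher in pulmonary were 3 genes of the extracellular matrix and a secreted Wnt modulator. Their absolute log2 differences ran from 0.74 to 3.10. Because whole tissue was measured, fewer cells of a type and less RNA per cell cannot be told apart in any of them.

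Col2a1 (ENSMUSG00000022483, chromosome 15, 97975602 to 98004695 in GRCm38), which encodes the main fibrillar collagen of cartilage, was 34.1, 40.7 and 14.8 in aortic and 69.7, 108 and 69.8 in pulmonary libraries. Every pulmonary value exceeded every aortic value (log2 1.52, SE 0.27, adjusted p = 0.164, limma). Col12a1 (ENSMUSG00000032332, chromosome 9, 79598991 to 79718831), a collagen that binds to fibrils, was 63.3, 71.4 and 107 in aortic and 173, 145 and 151 in pulmonary libraries. The mutant aortic library came closest to the pulmonary range (log2 0.98, SE 0.20, adjusted p = 0.336). Fmod encodes fibromodulin, a small proteoglycan that binds collagen fibrils, and was 35.2, 49.1 and 23.3 in aortic and 94.0, 56.2 and 73.1 in pulmonary libraries. The wild-type replicate 4 libraries of the valves were nearest to each other (log2 1.06, SE 0.27, adjusted p = 0.924).

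Dkk2 (ENSMUSG00000028031, chromosome 3, 132085292 to 132180304) encodes a secreted modulator of Wnt receptors. It was 29.0, 35.4 and 34.6 in aortic and 74.5, 60.6 and 94.7 in pulmonary libraries (log2 1.17, SE 0.23, adjusted p = 0.234). The 3 aortic values lay close together, with a mean of 33.0 ± 3.51 (SD, n = 3). Nt5e, the ectoenzyme CD73 that makes adenosine from AMP, was 16.3, 27.7 and 37.4 in aortic and 42.7, 38.8 and 110 in pulmonary libraries, where the mutant was far above the wild types (log2 1.11, SE 0.27). The potassium channel gene Kcnj15 and the genes Tmem9, Rnf130, Strip2 and Filip1 had log2 differences of 0.74, 0.96, 1.14, 1.13 and 1.10. Tmem254c and Rps13-ps2 complete the set and are near-identical copies of other genes, described below.

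The 12 genes higher in aortic included transcription factors and a gap junction gene known from endothelium. Prox1 (ENSMUSG00000010175, chromosome 1, 190118035 to 190170714), a homeobox factor of lymphatic and valve endothelium that heart muscle also expresses, was 239, 224 and 344 in aortic libraries. In pulmonary libraries it was 72.9, 139 and 131, all below the lowest aortic value (log2 -1.26, SE 0.21, adjusted p = 0.164, limma). Gja4 (ENSMUSG00000050234, chromosome 4, 127311421 to 127314039) encodes connexin 37 of arterial endothelium and was 71.7, 90.2 and 133 in aortic and 43.5, 29.0 and 43.1 in pulmonary libraries (log2 -1.31, SE 0.23, adjusted p = 0.164). Sox7, an endothelial SOX factor, was 90.1, 93.2 and 148 against 58.8, 56.6 and 78.1 (log2 -0.74, SE 0.19, adjusted p = 0.924). In all 3 genes the mutant aortic library had the highest value of the 6. Summed endothelial markers were 2355, 2813 and 3845 in aortic and 2719, 2198 and 3002 in pulmonary libraries, which overlap, and the mutant aortic library again had the highest. The part of endothelial content in these 3 differences was not tested.

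Slc22a23, an orphan member of a solute carrier family, was 31.6, 42.8 and 79.6 in aortic and 13.2, 16.9 and 11.4 in pulmonary libraries (log2 -1.73, SE 0.34, adjusted p = 0.234). Lsamp, a cell adhesion molecule first known from the limbic system, was 23.8, 27.6 and 45.4 against 14.3, 5.51 and 6.67 (log2 -1.81, SE 0.40, adjusted p = 0.671). In both, the mutant aortic library was the highest of the 6. Pdgfra, a PDGF receptor of mesenchyme, was 340, 322 and 454 against 251, 208 and 306, so the mutant pulmonary library approached the wild-type aortic libraries (log2 -0.54, SE 0.15, adjusted p = 0.995). The zinc finger factor gene Sall1, the protease gene Mmp28, the cell surface gene Tenm4, the ubiquitin ligase gene Hace1 and the small GTPase gene Arl4a had log2 differences of -1.11, -1.59, -0.87, -0.97 and -0.68. Rpl10a is the last of the 12.

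**Figure D2:**
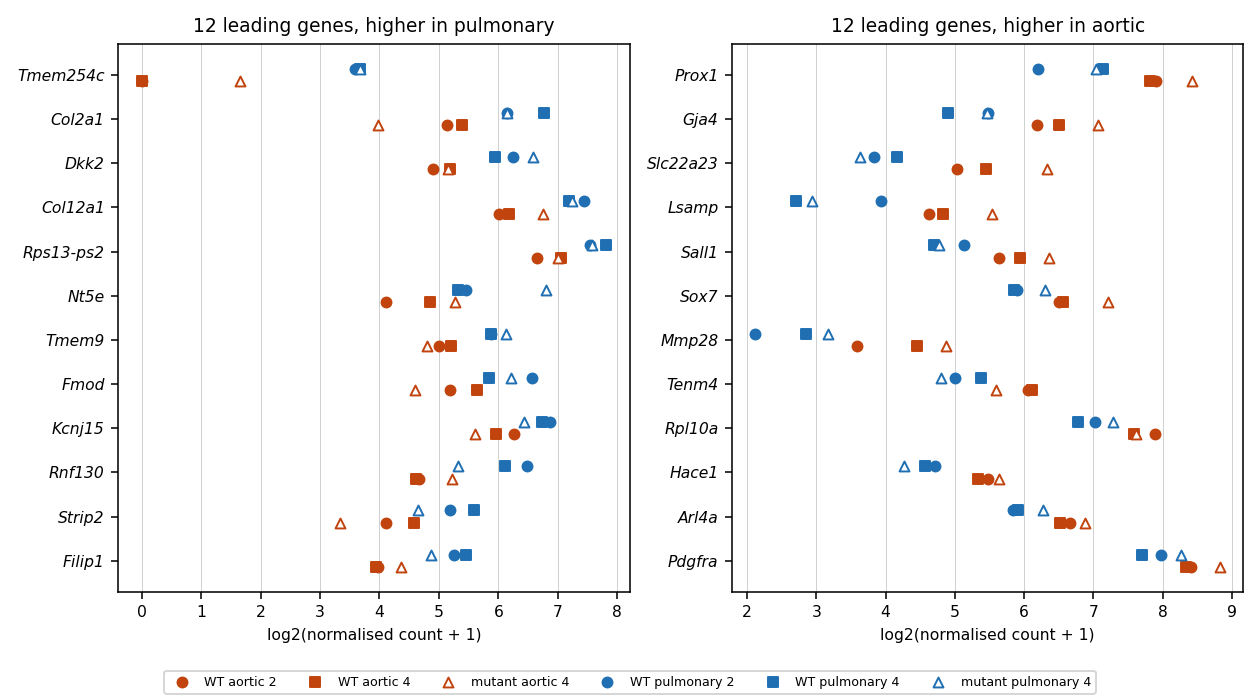
Level of each of the 24 leading genes, as log2(normalised count + 1), in each of the 6 low-Mylpf libraries (aortic orange, pulmonary blue, mutants open). The valves do not overlap for any of them, which is how the genes were chosen. Prox1 ran from 224 to 344 normalised counts in aortic and from 72.9 to 139 in pulmonary libraries.

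DESeq2's 10 calls included 8 of these 24 genes, Col2a1, Dkk2, Col12a1, Tmem254c, Prox1, Slc22a23, Gja4 and Lsamp. Its adjusted p was 0.000159 for Col2a1 and for Prox1. The other 2 calls were entries for ribosomal protein copies. Rps3a3 was 321, 263 and 0 in aortic and 112, 92.0 and 0 in pulmonary libraries, at 0 in both mutants. Gm10073 was 4.23, 1.93 and 2.13 in aortic and 3.87, 41.4 and 49.7 in pulmonary libraries, where wild-type pulmonary 2 lay within the aortic range. Both were singled out for their DESeq2 calls.

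For 3 leading genes a near-identical entry exists, and the valves overlapped once the values of both entries were summed. Rps13 encodes a protein of the small ribosomal subunit, and its processed pseudogene Rps13-ps2 was 100% identical to its transcript over 453 bases. Rpl10a encodes a large subunit protein, and the pseudogene Rpl10a-ps1 was 100% identical to its transcript over 654 bases. The stretches below, from the GENCODE M21 transcripts of GRCm38, show the first 60 bases of each pseudogene with the same stretch of its parent gene. Rps13-ps2 is at chr7:88530839-88530898 and Rpl10a-ps1 at chr1:64994545-64994604, both on the minus strand. The parents' stretches are bases 89 to 148 of an Rps13 transcript of 589 bases and 144 to 203 of an Rpl10a transcript of 830 bases, and capitals mark the ATG that opens each.
Rps13: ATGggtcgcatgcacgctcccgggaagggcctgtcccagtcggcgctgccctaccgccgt
Rps13-ps2: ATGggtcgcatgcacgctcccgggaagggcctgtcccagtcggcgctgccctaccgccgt
Rpl10a: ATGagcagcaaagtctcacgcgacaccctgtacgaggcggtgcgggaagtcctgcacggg
Rpl10a-ps1: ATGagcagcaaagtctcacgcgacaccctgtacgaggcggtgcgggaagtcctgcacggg

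Rps13-ps2 was 99.5, 132 and 127 in aortic and 185, 224 and 190 in pulmonary libraries (log2 0.75, SE 0.18). Rps13 itself went the other way, with 278, 206 and 187 in aortic and 172, 107 and 174 in pulmonary libraries (log2 -0.58, SE 0.22). Their sum was 377, 338 and 313 in aortic and 358, 331 and 364 in pulmonary libraries, so the valves overlapped and the log2 difference was 0.04. Rpl10a was 237, 192 and 195 against 130, 109 and 155 (log2 -0.67, SE 0.18), while its sum with Rpl10a-ps1 was 703, 600 and 585 against 508, 626 and 766 (log2 -0.01). In both families the sum overlapped where the single entry did not. Without wild-type pulmonary 4 the log2 difference of Rps13 was -0.31.

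Tmem254c and Tmem254b were identical over 1211 bases and lie on chromosome 14. Tmem254c was listed at 0, 0 and 2.13 in aortic and at 11.1, 11.7 and 11.7 in pulmonary libraries. Their sum was 8.46, 30.5 and 6.26 in aortic and 11.1, 26.6 and 44.1 in pulmonary libraries, which overlap, with a log2 difference of 0.93 that kept the direction of Tmem254c. Values of these entries are uncertain, since the authors' tool divides reads among copies.

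**Figure D3:**
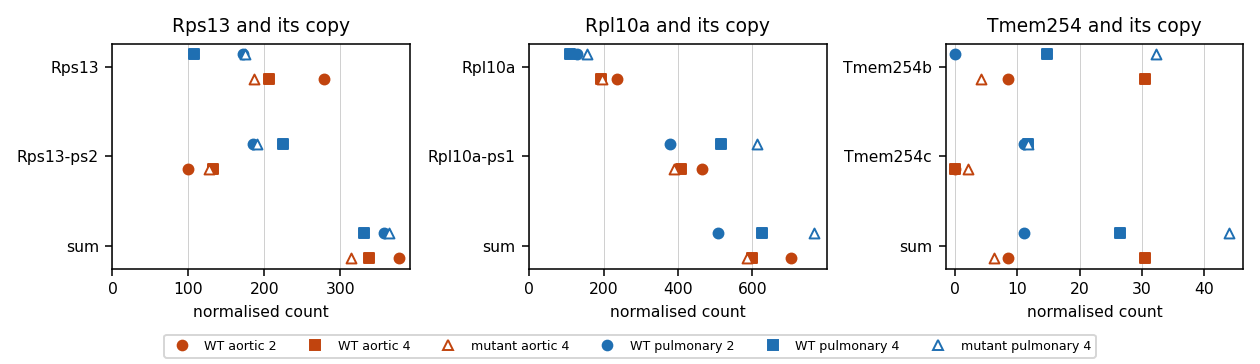
Normalised counts of a gene, its near-identical copy and their sum in the 6 low-Mylpf libraries, for 3 families (aortic orange, pulmonary blue, mutants open). Rps13 and Rps13-ps2 separate the valves in opposite directions, and their sum runs from 313 to 377 in aortic and from 331 to 364 in pulmonary libraries.

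The same contrast in the 10 libraries with Mylpf of at least 278, 5 per valve, shares no library with the 6. In that fit 0 of 13271 genes passed (0%; smallest adjusted p 0.9999, limma), and before adjustment 129 had p under 0.05 (0.972%). By edgeR 0 passed there too, with 56 higher and 71 lower before adjustment. All 5 pulmonary libraries lay above all 5 aortic libraries for 8 genes (0.0603%) and below them for 21 (0.158%). Full separation is rarer by chance with 5 libraries a valve than with 3, so these shares are not comparable with those of the 6. Of the 12 genes leading in pulmonary, 5 had a difference of the same sign in the other 10 libraries (50.2% of all genes were above 0), with a median log2 difference of -0.34. Of the 12 leading in aortic, 3 had the same sign (49.8% of all genes were below 0), with a median of 0.13. Col2a1 had a log2 difference of -0.41 (SE 0.59), Dkk2 -0.66 (SE 0.48), Prox1 -0.12 (SE 0.35) and Gja4 0.13 (SE 0.65) in the other 10.

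Among the leading genes, Rpl10a alone separated the valves in the same direction in both kinds of library, at 282 to 347 in 5 aortic and 126 to 217 in 5 pulmonary libraries of the other 10. It was singled out for that separation. Its sum with Rpl10a-ps1 overlapped between the valves there, with a log2 difference of -0.23. Rps13 and Rps13-ps2 also kept their opposite directions in the other 10, at log2 -0.78 and 0.46, with overlapping valves. Their sum had a log2 difference of -0.18 there. A test of the difference between the 2 kinds of library, an interaction term over all 16, called 0 genes (0%; smallest adjusted p 0.999, limma), and 376 had p under 0.05 before adjustment (2.83%); by edgeR 0 passed, and 203 and 175 had p under 0.05, by direction. The valve differences of the 6 and of the 10 are therefore not shown to differ for any gene.

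**Figure D4:**
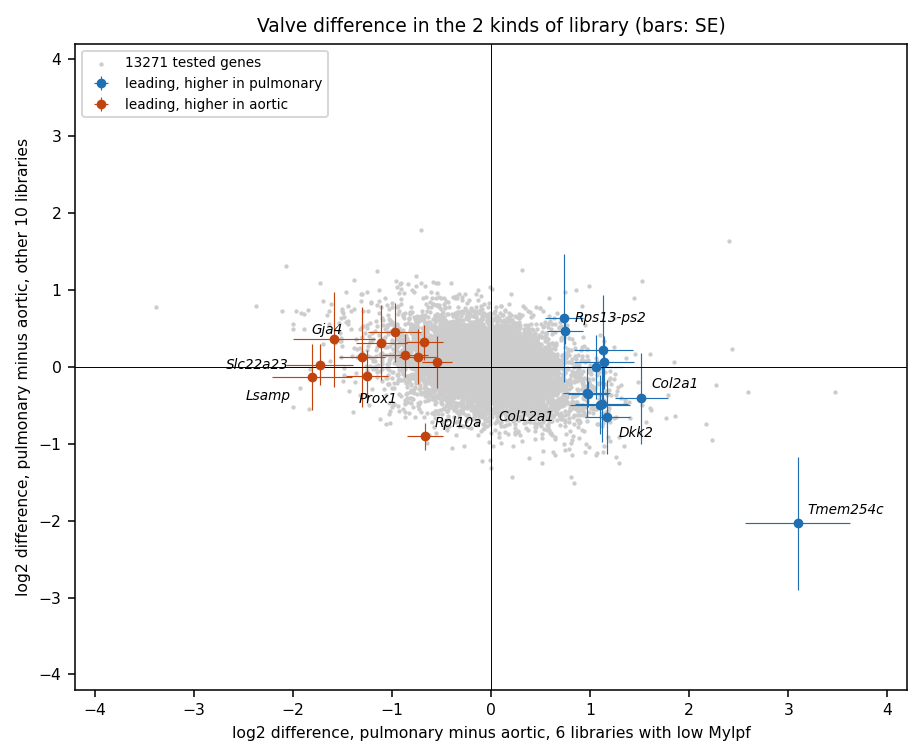
Log2 difference between the valves (pulmonary minus aortic) of 13271 genes in the 6 low-Mylpf libraries (horizontal) and in the other 10 (vertical), with the 24 leading genes in colour and their SE as bars. Prox1 is at -1.26 and -0.12, Col2a1 at 1.52 and -0.41, and Rpl10a at -0.67 and -0.90.

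Gene lists were described by how many members lay on each side of 0, beside 48.5% of all tested genes above 0, 51.5% below, and a median of -0.01. List values with libraries left out rest on differences of plain means, while those of single genes come from the limma fit. No member of any list passed the adjusted threshold. Of 31 collagen genes, 19 lay above 0 and 12 below, with a median of 0.19, and Col2a1 and Col12a1 led. In the wild-type libraries alone the split was 15 and 16, with a median of -0.01, and without mutant aortic 4 the median was 0.09. The valves did not overlap for 5 collagens higher in pulmonary and 3 higher in aortic, beside 3.97% and 4.42% of all tested genes. Col1a1 and Col1a2, the chains of collagen I, were picked here after their values were seen. Col1a1 was 699, 754 and 516 in aortic and 847, 916 and 845 in pulmonary libraries, with no overlap (log2 0.42, SE 0.15, adjusted p = 0.999), and Col1a2 had a log2 difference of 0.39. Col3a1, at log2 0.20, was the last of the 5. The 3 higher in aortic were named after their values were seen too. Col26a1, a collagen known from testis and ovary, was 11.4, 15.6 and 15.5 in aortic and 5.61, 6.85 and 4.45 in pulmonary libraries (log2 -1.20, SE 0.41, adjusted p = 0.999). Col4a6, a basement membrane chain, had a log2 difference of -1.25 at low counts, and Col18a1, the source of endostatin, one of -0.27.

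Of 34 proteoglycan and matricellular genes, 21 lay above 0, with a median of 0.14. Leaving out any 1 library gave medians from 0.02, without wild-type pulmonary 4 (18 above and 16 below), to 0.25, without mutant pulmonary 4 (26 and 8). Fn1, the fibronectin gene, differed in the other direction. It was 1769, 2516 and 3659 in aortic and 1393, 1888 and 1901 in pulmonary libraries, with overlap (log2 -0.57, SE 0.19, adjusted p = 0.999). The 18 elastic fibre genes split 9 and 9, with 6 to 9 above 0 when any 1 library was left out. Among them Eln, the elastin gene, was 47.9, 78.6 and 60.0 against 38.9, 31.7 and 37.4 (log2 -0.75, SE 0.25), and Fbn1, the fibrillin gene, was 703, 832 and 839 against 659, 605 and 480 (log2 -0.45, SE 0.16). Both were higher in every aortic than in every pulmonary library, and each had an adjusted p of 0.999 (limma). Of the 18 genes, the valves did not overlap for 2 higher in pulmonary and 3 higher in aortic, beside 3.97% and 4.42% of all tested genes. In the other 10 libraries Eln and Fbn1 had log2 differences of -0.14 and 0.34. In the wild types alone Fbn1 had a log2 difference of -0.28.

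The glycolysis and hypoxia list had the highest median among the lists with at least 5 tested members. Of 26 members 22 lay above 0, with a median log2 difference of 0.40, and 7 had an unadjusted p under 0.05 in that direction. Of all 13271 tested genes 241 did (1.82%). Eno1, which encodes enolase, was 125, 93.7 and 64.3 in aortic and 151, 124 and 255 in pulmonary libraries, so that wild-type aortic 2 and wild-type pulmonary 4 were level (log2 0.88, SE 0.27, adjusted p = 0.999). Pfkl, the liver-type phosphofructokinase, was 16.6, 16.5 and 20.9 against 28.8, 24.6 and 62.7 (log2 0.95, SE 0.30, adjusted p = 0.999). The mutant pulmonary library was far above the other 5 in both genes, and in the wild types alone the log2 difference of Eno1 was 0.33. Pkm, Pgk1, Aldoa, Ldha and P4ha1, the other 5 of the 7, were picked after their values were seen and had log2 differences of 0.51, 0.56, 0.58, 0.46 and 0.61.

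Without mutant pulmonary 4 the glycolysis and hypoxia list split 20 and 6, and its median was 0.19, while without wild-type pulmonary 2 it split 23 and 3, with a median of 0.61. In wild types alone it split 22 and 4, with a median of 0.21. In the other 10 libraries it split 11 and 15, with a median of -0.03. Of 47 nuclear genes of oxidative phosphorylation, 37 lay above 0, with a median of 0.19, and 36 did in the other 10, with a median of 0.05. The 69 cytosolic ribosomal protein genes had 48 above 0 (median 0.10), but 24 in the wild types alone (median -0.07) and 21 in the other 10 (median -0.08). Leaving out any 1 library left 33 of the ribosomal protein genes above 0, without mutant aortic 4, to 59, without wild-type aortic 2.

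Ligand and receptor pathways gave mixed splits. Of 28 Notch pathway genes, 8 lay above 0 and 20 below, with a median of -0.07, against 14 and 14 in the other 10 libraries. Leaving out any 1 library gave Notch medians from -0.19 to -0.10. Jag1, a Notch ligand and the gene targeted in the mutants, had a log2 difference of -1.24 (SE 0.43, adjusted p = 0.999, limma), with overlapping valves. In the wild types alone it was -0.86, where wild-type aortic 2 was far above the rest. Without that library it was -0.92, but the wild types were then level, at 18.8 in aortic and 19.2 and 15.4 in pulmonary libraries. The mutants were at 10.2 in aortic and 1.85 in pulmonary. The Notch target Hey2 was 97.8, 104 and 127 in aortic and 83.1, 73.0 and 88.7 in pulmonary libraries, without overlap (log2 -0.42, SE 0.18, adjusted p = 0.999). Of 41 guidance genes, 13 lay above 0 and 28 below, with a median of -0.17 that stayed between -0.18 and -0.11 when any 1 library was left out. In the other 10 the guidance genes split 22 and 19. Efnb2, the ephrin ligand of arterial endothelium, was 215, 164 and 363 against 170, 106 and 179 (log2 -0.66, SE 0.21, adjusted p = 0.999).

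The 19 TGF-beta pathway genes split 10 and 9, with a median of 0.19. In the wild types alone 15 lay above 0 and 4 below (median 0.16), and with any 1 library left out 11 to 13 lay above 0, with medians from 0.10 to 0.22. Tgfb3, the ligand, was 64.9, 36.7 and 27.9 in aortic and 85.2, 65.5 and 59.0 in pulmonary libraries (log2 0.75, SE 0.25), and Tgfbi, a secreted protein that TGF-beta induces, was 75.2, 178 and 189 against 173, 297 and 229 (log2 0.73, SE 0.28). Both overlapped between the valves, and Tgfbi had a log2 difference of 0.32 without wild-type aortic 2 and 0.45 without wild-type pulmonary 4. In the other 10 libraries Tgfb3 had a log2 difference of -0.37 (SE 0.19), and all 5 pulmonary libraries there lay below all 5 aortic libraries. The 43 Wnt pathway genes split 20 and 23 and the 22 BMP pathway genes 10 and 12. Their medians fell on either side of 0 as single libraries were left out, from -0.12 to 0.02 for Wnt and from -0.13 to 0.01 for BMP genes.

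Of 19 outflow identity genes, 8 lay above 0 and 11 below, with a median of -0.06. Without wild-type aortic 2 the direction turned, with 11 above and 8 below and a median of 0.06, and without mutant aortic 4 the median was -0.13. The valves did not overlap for 2 of the 19 higher in pulmonary and 3 higher in aortic. For all tested genes the shares were 3.97% and 4.42%. Tbx3, a T-box repressor, was 32.3, 47.0 and 43.5 in aortic and 59.8, 56.4 and 82.0 in pulmonary libraries, without overlap (log2 0.68, SE 0.23, adjusted p = 0.999). Hand1, a basic helix-loop-helix factor of the early heart, was 7.52, 16.8 and 18.1 against 3.74, 8.69 and 1.98 (log2 -1.47, SE 0.52), with overlap, and at log2 -0.86 in the wild types alone. Sema3c, the semaphorin used as a mark of sub-pulmonary myocardium, was singled out after its values were seen. It was 5.48, 2.46 and 4.84 in aortic and 18.8, 8.20 and 8.89 in pulmonary libraries, without overlap (log2 1.26, SE 0.48, adjusted p = 0.999). In the other 10 libraries Tbx3 and Sema3c had log2 differences of -0.47 and -0.65. The 3 without overlap and higher in aortic, named after their values were seen, were forkhead and GATA factors. Foxc2 was 15.8, 17.0 and 33.3 in aortic and 13.1, 7.59 and 15.1 in pulmonary libraries (log2 -0.81, SE 0.35, adjusted p = 0.999), and Gata5 and Gata6 had log2 differences of -0.39 and -0.36.

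Cardiomyocyte, erythroid and smooth muscle markers had the lowest medians among the lists with at least 5 tested members, while neuronal and macrophage markers were at 0.26 and 0.16. Without wild-type aortic 2 the neuronal and macrophage medians were 0.02 and 0.04, and without mutant pulmonary 4 they were 0.30 and -0.01. Of 22 cardiomyocyte markers 3 lay above 0 and 19 below, with a median of -0.67. Ttn, the giant sarcomere protein titin, was 868, 333 and 140 in aortic and 198, 73.4 and 53.5 in pulmonary libraries, which overlap (log2 -1.89, SE 0.35, adjusted p = 0.216). Ldb3, a protein of the Z disc, was 28.2, 25.4 and 37.1 against 20.8, 9.79 and 9.88, without overlap (log2 -1.17, SE 0.36, adjusted p = 0.999). Without wild-type aortic replicate 2 the cardiomyocyte list split 9 and 13, with a median of -0.05. Of 12 erythroid markers 1 lay above 0 and 11 below (median -0.61), and without that library 7 lay above 0 (median 0.28). The erythroid list stood the other way in the other 10 libraries, where all 12 lay above 0, with a median of 0.75.

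Of 24 endothelial markers, 8 lay above 0 and 16 below, with a median of -0.12 in the 6 libraries and 0.00 in the other 10. Without wild-type pulmonary 4 the direction turned, with 13 above and 11 below (median 0.01), and without wild-type aortic 2 the split was 6 and 18 (median -0.39). Sox17, a factor of arterial endothelium, was 11.0, 11.8 and 13.7 in aortic and 2.27, 5.26 and 6.92 in pulmonary libraries, without overlap (log2 -1.26, SE 0.44, adjusted p = 0.999). Kdr, the VEGF receptor, was 60.0, 61.9 and 128 against 66.0, 39.2 and 59.8, where the mutant aortic library was far above the rest (log2 -0.53, SE 0.25, and -0.26 in the wild types alone). Of 16 smooth muscle markers, 3 lay above 0 and 13 below (median -0.20), but 7 and 9 without wild-type aortic 2. Rgs5, a pericyte gene, ran against the list, with 96.0, 86.0 and 86.0 in aortic and 160, 140 and 92.9 in pulmonary libraries (log2 0.51, SE 0.19).

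**Figure D5:**
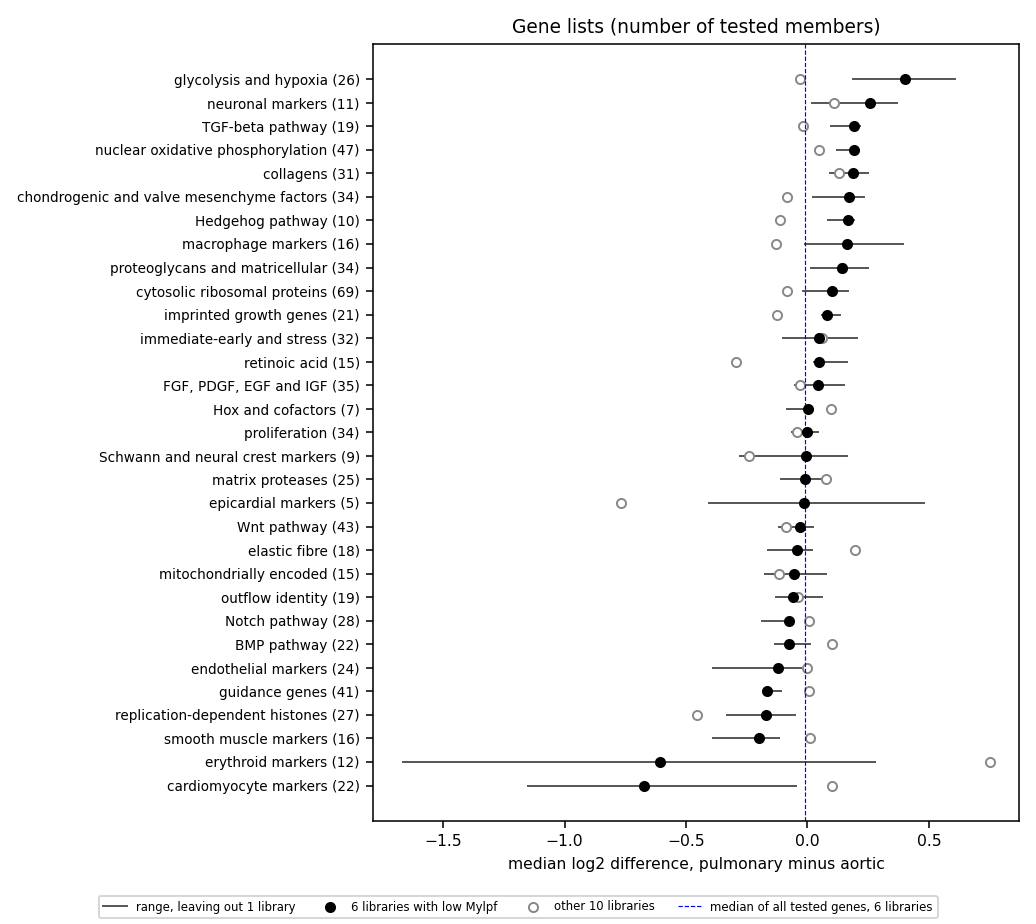
Median log2 difference (pulmonary minus aortic) of the gene lists with at least 5 tested members, in the 6 low-Mylpf libraries (black) with the range when 1 library is left out (line), and in the other 10 (open). The glycolysis and hypoxia list is highest at 0.40 and the cardiomyocyte list lowest at -0.67, and the erythroid line crosses 0 without wild-type aortic replicate 2.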

How the data were processed

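The deposited signal is 1 scaled value per library for 13964 genes, and how the authors scaled it is not stated here. The submitters' processing notes name RSEM 1.2.3, cutadapt 1.6, CASAVA 1.8.2, FastQC and the build GRCm38. Per the labels' protocols RNA came from PicoPure columns, was amplified with Ovation RNA-Seq V2 and made into TruSeq libraries. Within a library 100% of the values are whole multiples of 1 step (tolerance 0.05 read), and edgeR's TMM factors recomputed from those reads match the scaling within 4.88e-09%, so the values are called normalised counts.

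limma 3.58.1 (R 4.3.3) with a mean-variance trend was fitted on log2(value + 1) with terms for genotype and valve. Genes entered it with a value of 1 or more in 3 or more of the 6 libraries, with two-sided tests and Benjamini-Hochberg adjustment at 0.05. Log2 differences on this scale understate changes of low genes. edgeR 4.0.16 and DESeq2 1.42.0 were run on the recovered reads. The fit was tested on simulated data. With 3 libraries a valve, an exact permutation test cannot go below p = 0.1.

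The libraries, the 34 gene lists and the tests were chosen with earlier results of these data known. The rule for named genes took 12 per direction, as the report says, the 2 smallest p of each list, and Mylpf, Jag1, Tbx20, Xist, Hbb-bs and mt-Rnr2. A gene that the rule named is not reported here. Names come from GENCODE M21, which matched 13780 of 13964 IDs. The lowest chi-square per gene between 2 libraries was 13.6, so none agreed within sampling noise. Alternatives changed the pseudocount, filter, scaling, genotype term, block, test, libraries and Mylpf limit, or added log2 Xist as a covariate.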

Additional observations from a re-analysis of the deposited data

Results flagged for a closer look

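Of 17 quantities tested for a stray library over the 6 low-Mylpf libraries, 7 had a value set apart, and all 7 belonged to wild-type aortic replicate 2 (Dixon's test at 95%, which chance passes for about 1 in 20 normally distributed quantities). They were Mylpf at 23.2, Hbb-bs at 16810, Jag1 at 54.7, and the summed markers of airway and oesophagus at 22.9, of cardiomyocytes at 1834, of erythroid cells at 41072 and of skeletal muscle at 86.5. Several share genes or a source, so they are not 7 separate signs. Mylpf chose the 6 libraries and is part of the skeletal muscle sum, so neither of those flags lends support. The 3 closest values of the other 5 libraries were 7.16 for Mylpf, 3594 for Hbb-bs and 19.2 for Jag1.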

How the results depend on the processing

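The count of genes past the threshold between the valves in the 6 low-Mylpf libraries was 0 in each direction and changed as follows. DESeq2 called 5 higher and 5 lower. With log2 Xist as a covariate there was 1 higher and 1 lower, and with Mylpf below 10, which leaves out wild-type aortic 2, also 1 and 1 (Rpl27-ps3, and Cxcl12 at log2 -2.60). Leaving out any 1 library gave 0 to 1 higher and 0 to 3 lower. Prox1 was called without wild-type pulmonary 4 (adjusted p 0.00414), and Ttn, Hbb-y and Hba-x without wild-type aortic 4. With a replicate block, which pairs libraries by genotype and number, 0 were higher and 1 was lower (Ttn, adjusted p 0.00194). Same-numbered libraries of the valves deviated together at r = 0.06, 0.02 and 0.10, and differently numbered ones at r = -0.09 to 0.02. Deviations were taken from means of 3 libraries, so these values cannot decide whether the numbers pair libraries. By the labels, replicate 4 libraries of the 2 valves came from different litters. The replicate 2 libraries differed in Xist, at 2369 in aortic and 1.07 in pulmonary. Same-numbered libraries were therefore not from 1 embryo, and the replicate block does not pair libraries by embryo. The other settings gave 0 and 0. Counts in the other 10 libraries (15 settings) and for the interaction (20 settings) stayed at 0.

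The 24 leading genes passed the threshold in 9 of 479 values over 20 settings. Their direction under these settings is no sign of stability, since they were chosen for it. Among 86 named genes, 18 values turned sign. Under the Xist covariate these were Mylpf 0.59, Tbx20 0.028, Krt19 0.73, Ryr1 0.43 and Hbb-bs 1.35, and with the limit of 10, which is the same as without wild-type aortic 2, Mylpf 0.65, Tbx20 0.033, Krt19 0.71, Ryr1 0.43 and Hbb-bs 1.33. Leaving out any 1 library gave Mylpf -2.21 to 0.65, Tbx20 -0.17 to 0.033, Krt19 -1.25 to 0.71, Ryr1 -0.70 to 0.43, Hbb-bs -1.84 to 1.33, Fabp7 -0.20 to 2.01 and mt-Rnr2 -0.013 to 0.11. Both mutants had high Xist, and among wild types only aortic 2 did, at 2369 against at most 1.84. With genotype in the fit, the Xist covariate therefore largely set that library apart. Its results and those without wild-type aortic 2 are not separate signs. The cause of the changes in these genes was not tested. Reads need not be separate molecules, so depth speaks of counting error only.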

Other observations

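Of 13271 genes, 1114 separated the valves without overlap in the 6 low-Mylpf libraries and 29 in the other 10. These counts are not comparable, since full separation has an exact permutation p of 0.1 for 3 against 3 libraries and 0.00794 for 5 against 5. In both kinds of library 3 genes separated in the same direction, singled out here for that. Zfp36l1, an RNA-binding protein that promotes mRNA decay, was 208, 173 and 187 in aortic and 161, 140 and 161 in pulmonary libraries (log2 -0.30, adjusted p = 0.999, limma), with a log2 difference of -0.50 in the other 10. Hax1, a mitochondrial survival factor, was 27.1, 29.8 and 28.9 against 37.0, 40.1 and 39.6 (log2 0.43, adjusted p = 0.999) and 0.25 in the other 10. The last was Rpl10a. Alyref2 separated in opposite directions, at log2 0.82 and -0.90.

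Cxcl12, the chemokine that attracts CXCR4-bearing cells, was picked because an alternative setting called it. It was 19.6, 97.6 and 121 in aortic and 17.5, 7.22 and 28.3 in pulmonary libraries (log2 -1.93, SE 0.46, adjusted p = 0.871, limma). Wild-type aortic 2 lay within the pulmonary range, and the other aortic libraries lay well above it. In the other 10 libraries it was 67.0 to 150 in aortic and 58.5 to 96.0 in pulmonary valves.

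Replication-dependent histone genes, whose mRNAs lack a poly(A) tail, lay below 0 in 20 of 27 cases (median -0.17; 51.5% of all genes were below 0) and in 24 of 27 in the other 10 libraries (median -0.45; 49.8% of all genes). Without wild-type pulmonary 2 the histone split in the 6 was 12 above and 15 below, with a median of -0.05, and without mutant pulmonary 4 the median was -0.33. The 34 proliferation genes split 17 and 17, with 13 to 19 above 0 when any 1 library was left out. Imprinted growth genes lay above 0 in 13 of 21 cases, with Peg10, a retrotransposon-derived gene, at 99.2, 60.9 and 87.6 in aortic and 110, 133 and 102 in pulmonary libraries (log2 0.49, SE 0.22, adjusted p = 0.999). The imprinted list had a median of 0.08 in the 6, and without wild-type aortic 2 it split 15 and 6, with a median of 0.13. Of 26 Hox genes and cofactors, 7 passed the filter on low values, and 0 of them had an unadjusted p under 0.05. Of all tested genes 3.62% did, so 0 of 7 says little.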
